A study of Mus musculus with 2 samples.

Results

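Myeloid cells take their identity from a small set of DNA-binding proteins and their partners. The 9 genes described here encode PU.1 (Spi1), C/EBPα, C/EBPβ and C/EBPδ (Cebpa, Cebpb, Cebpd), KLF4 (Klf4), c-MAF (Maf), ZEB2 (Zeb2), ID2 (Id2) and ZBTB46 (Zbtb46). They were chosen by name, and all 9 were present among the 31053 features of both libraries. PU.1 is needed for the myeloid lineages as a whole, and the C/EBP proteins act with it in granulocytes, monocytes and macrophages. KLF4 promotes monocyte differentiation and serves part of the type 2 conventional dendritic cells (cDC2), and c-MAF is active in macrophages and in some T cells. ZEB2 and ID2 act against each other in dendritic cell development, where ID2 is needed for type 1 conventional dendritic cells (cDC1), and ZBTB46 marks conventional dendritic cells among myeloid cells.

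Single-cell RNA sequencing was carried out on colon lamina propria cells labelled cd11b+, taken from mice labelled WT (wild type) or LncRNA17Rik knockout (KO). The study describes the KO animals as lncLy6c-deficient mice on the C57BL/6J background, made by CRISPR-Cas9 cuts outside both exons of a long non-coding RNA gene in zygotes. Cells came from pooled male mice 8 weeks of age, and no treatment is given. Each genotype was 1 library, so differences between WT and KO have no replicate check, no test was possible, and intervals cover counting error only. The label LncRNA17Rik matched no feature name, and the genotype was not checked from expression.

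After filtering, 2597 WT and 2514 KO cells remained, with a median of 5073 and 6565 unique molecular identifiers (UMIs, each marking 1 captured RNA molecule) per cell. The libraries shared 1 cell barcode. Of 22 clusters, 20 were named from marker genes that held none of the 9 factors, and 8 cell classes held at least 50 cells in both libraries. Itgam, which encodes CD11b, had a UMI in 40.0% of WT and 57.8% of KO cells, and T cell-like, B cell-like, plasma cell-like and epithelial-like cells were present despite the label. The eosinophil-like class rested on 3 raised markers, carried no UMI of Epx, which encodes eosinophil peroxidase, and was shallow, with a median of 798 UMIs in WT and 971 in KO. Levels below are UMIs per 1000000 UMIs (CPM) summed over the cells of a class.

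The same class was not always made of the same cells in both libraries. Of the inflammatory monocyte-like cells, a cluster led by Ly6i, Cxcl9 and Sirpb1c held 398 of 463 in WT but 55 of 366 in KO, whereas a cluster led by Chil3, Ace and Lyz2 held 31 in WT and 263 in KO. Of the resident macrophage-like cells, a cluster led by Mmp13, C1qa and C1qc held 306 in WT and 130 in KO, and a cluster led by Retnla, Ccl24 and Lpl held 20 and 155. Of the cDC2-like cells, a cluster led by Ccl17, Mgl2 and Il12b held 3 in WT and 115 in KO. For the main differences between KO and WT, values inside these clusters are given too.

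Spi1 (chr2:91082390-91115756, plus strand, GRCm38, as are all positions here) encodes the ETS-family factor on which myeloid cells depend. Its level was 641 CPM in WT and 889 in KO neutrophil-like cells, 474 and 529 in inflammatory monocyte-like cells, and 438 and 352 in resident macrophage-like cells. It was 315 and 283 in cDC1-like and 359 and 270 in cDC2-like cells. B cell-like cells held 114 and 104 CPM, and T cell-like cells 4.14 and 44.7. The neutrophil-like class was the highest in each library, without overlap of its interval with the next class, and lymphoid cells were the lowest of the 8 classes. Over the macrophage, monocyte, neutrophil and dendritic classes together, Spi1 was higher than over T, B and plasma cell-like cells. The difference was 3.52 log2 units in WT (95% counting interval 3.33 to 3.72) and 2.56 in KO (2.24 to 2.91). Plasma cell-like cells numbered 235 in WT and 5 in KO, so the make-up of the lymphoid group differed between the libraries.

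A Spi1 UMI was found in 83.4% of WT and 91.0% of KO monocyte-like cells, against 2.48% and 8.18% of T cell-like cells, which should lack it. The median depth was 6216 and 9306 UMIs in the monocyte-like and 4968 and 5874 in the T cell-like cells. With each cell thinned to 500 UMIs, the shares were 20.1% and 23.2% in monocyte-like cells and 0.413% and 0% in T cell-like cells. In the T cell-like class the Spi1 UMIs numbered 6 in WT and 33 in KO, and 5 cells carried 75.8% of the KO ones. Lyz2, which encodes lysozyme, moved with them, at 17.3 CPM in WT and 122 in KO, as did Cd14 at 8.98 and 56.9. The 8 resident macrophage markers summed to 69.8 and 211 CPM in these cells, with none at 0. A sum of 6 inflammatory monocyte markers went the other way, at 917 CPM in WT, with 2 at 0, and 303 in KO, with 1 at 0. That sum was not particular to monocytes, being at 1529 CPM in WT epithelial-like and 1063 in WT plasma cell-like cells. Irf8 was also lower in KO, at 87.0 and 36.5 CPM, and Itgam was at 37.3 and 24.4. Without the cells that held a UMI of C1qa, C1qb or C1qc, 219 WT and 104 KO T cell-like cells remained, and Spi1 was at 3.93 and 34.6 CPM on 5 and 23 UMIs, a log2 ratio of KO over WT of 3.14 (1.71 to 4.89). Among the other ETS partners, Irf8, which encodes an interferon regulatory factor of cDC1 and monocytes, was at 620 and 418 CPM in cDC1-like cells.

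The 3 C/EBP genes had distinct distributions. Cebpb (chr2:167688915-167690418, plus strand), whose product acts in granulocytes and activated macrophages, was highest in eosinophil-like cells at 3521 CPM in WT and 4529 in KO and in neutrophil-like cells at 3279 and 4518. These 2 classes had overlapping intervals in each library and stood apart from the others. Monocyte-like cells followed at 1604 and 1942 CPM and resident macrophage-like cells at 1082 and 808, whereas cDC1-like cells held 114 and 94.8. At 500 UMIs per cell, a Cebpb UMI was still found in 80.9% and 86.1% of eosinophil-like cells and 75.0% and 85.9% of neutrophil-like cells, against 4.13% and 5.80% of cDC1-like cells. The ratio of monocyte-like and macrophage-like cells over the dendritic classes was 2.70 log2 units in WT (2.59 to 2.80) and 3.32 in KO (3.25 to 3.40). Cebpe, a relative needed for late granulocyte maturation, was at 66.8 and 105 CPM in eosinophil-like cells.

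Cebpa (chr7:35119293-35121928, plus strand), which drives the choice of the granulocyte and monocyte lineage, was highest in resident macrophage-like cells in WT at 179 CPM. Monocyte-like cells held 73.6 CPM in WT and 64.7 in KO. In the KO library the macrophage level was 72.2 CPM, and its interval overlapped that of the monocyte-like class, so the macrophage level exceeded the monocyte level beyond counting error in WT but not in KO. The ratio of monocyte-like and macrophage-like cells over dendritic cells was 2.04 log2 units in WT (1.74 to 2.35) and 0.93 in KO (0.73 to 1.12).

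Cebpd (chr16:15887286-15891031, plus strand), an acute-phase member of the family, was highest in fibroblast-like cells at 455 CPM in WT (80 cells) and 325 in KO (21 cells). Among the myeloid classes it was highest in neutrophil-like cells at 151 and 206 CPM, beyond the interval of the next myeloid class in each library. Monocyte-like cells held 53.5 and 77.6 CPM and cDC1-like cells 20.5 and 27.6. Its ratio of monocyte-like and macrophage-like cells over dendritic cells was 0.74 log2 units in WT (0.42 to 1.07) and 1.23 in KO (1.03 to 1.43).

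**Figure D1:**
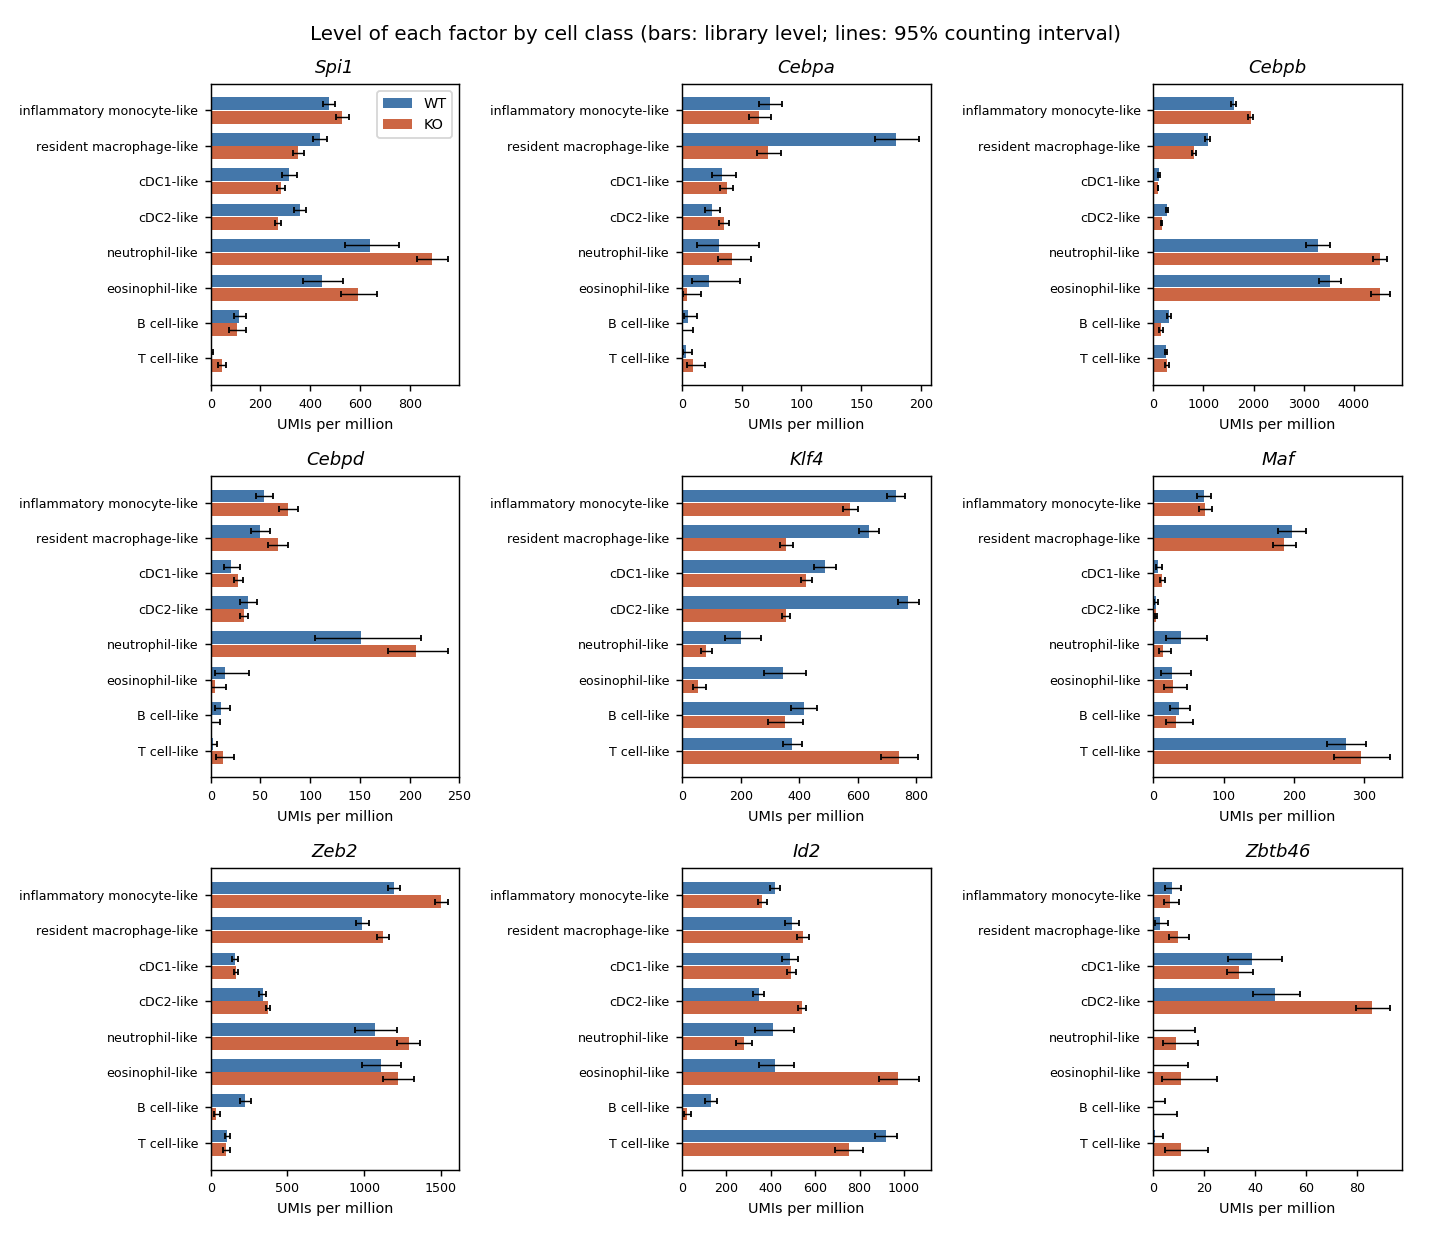
Level of each of the 9 factors in CPM (horizontal axis, a separate scale for each gene) in the 8 cell classes with at least 50 cells in both libraries. Bars are the WT (blue) and KO (orange) libraries and lines the 95% counting intervals. Cebpb was highest in eosinophil-like and neutrophil-like cells, Zbtb46 in cDC2-like and cDC1-like cells, and Maf in T cell-like and resident macrophage-like cells.

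Klf4 (chr4:55527143-55532466, minus strand) was spread over most classes. Epithelial-like cells, a known site of KLF4, held 1593 CPM in WT (123 cells) and 817 in KO (16 cells). In WT, cDC2-like cells held 772 CPM, monocyte-like cells 730, resident macrophage-like cells 636 and cDC1-like cells 487. In KO the same classes held 355, 574, 356 and 425 CPM. The dendritic classes differed in order between the libraries, cDC2-like cells exceeding cDC1-like cells by 0.67 log2 units in WT (0.54 to 0.79) and lying 0.26 below them in KO (-0.34 to -0.17). Without the cluster led by Ccl17 the KO value was -0.07 (-0.16 to 0.01), and across alternatives it lay between -0.51 and -0.01. T cell-like cells held 376 CPM in WT and 740 in KO, which made them the highest of the 8 classes in KO.

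Maf (chr8:115682942-115707794, minus strand) was highest among the myeloid classes in resident macrophage-like cells. Resident macrophage-like cells held 197 CPM in WT and 186 in KO, monocyte-like cells 71.9 and 73.5, and the dendritic classes between 3.43 and 12.5. The macrophage level exceeded the monocyte level by 1.45 log2 units in WT (1.21 to 1.70) and by 1.34 in KO (1.11 to 1.57). Across alternatives the WT value ranged from 0.23 to 1.45 and the KO value from 1.16 to 2.19. Shares of cells with a UMI were 44.5% and 57.2% in resident macrophage-like cells, 26.1% and 29.0% in monocyte-like cells and 2.75% and 4.49% in cDC2-like cells. T cell-like cells held 274 and 295 CPM, nearly all from the cluster led by Icos and Rora, at 1079 and 611 CPM, against 13.7 and 20.3 in the cluster led by Gzma. In the Icos cluster all 6 T cell markers were raised, but so were 5 of 6 innate lymphoid cell markers. Fibroblast-like cells held 388 and 132 CPM.

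Zeb2 (chr2:44983632-45117395, minus strand), a zinc finger repressor, was between 986 and 1195 CPM in the WT monocyte, macrophage, neutrophil and eosinophil classes and between 1123 and 1501 in KO. The cDC2-like cells held 339 and 375 CPM and cDC1-like cells 157 and 165. Monocyte-like and macrophage-like cells exceeded cDC1-like cells by 2.83 log2 units in WT (2.63 to 3.03) and, in KO, by between 2.90 and 3.11 (95% interval). At 500 UMIs per cell, 44.3% and 52.5% of monocyte-like cells carried a Zeb2 UMI, against 6.61% and 12.6% of cDC1-like cells. Fibroblast-like cells were as high as the myeloid ones in WT, at 1025 CPM. Zeb1, its paralogue, was at 172 and 294 CPM in T cell-like cells and at 7.59 and 8.17 in monocyte-like cells.

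Id2 (chr12:25093799-25097140, minus strand) encodes an inhibitor that binds E proteins and keeps them from DNA. It was highest in the small mature dendritic cell-like class (19 WT and 41 KO cells), at 2256 and 1521 CPM, and in natural killer cell-like cells (26 and 41 cells), at 1760 and 2541. T cell-like cells held 917 and 753 CPM. The levels of cDC1-like cells lay close to those of monocyte-like and macrophage-like cells combined, at 485 against 449 CPM in WT and 492 against 448 in KO. The log2 ratio was 0.11 in WT (-0.01 to 0.23) and 0.13 in KO (0.05 to 0.21). Its E protein target Tcf4 was highest among the 8 classes in B cell-like cells, at 555 and 378 CPM.

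Zbtb46 (chr2:181387762-181459426, minus strand) was counted in few molecules and, among the 8 larger classes, was highest in the dendritic ones. The cDC1-like cells held 38.8 CPM in WT and 33.7 in KO, cDC2-like cells 47.7 and 86.0, and the small mature dendritic cell-like class 113 and 119. The small natural killer cell-like class held 33.2 and 49.0 CPM on 5 and 9 UMIs. Monocyte-like cells held 7.26 and 6.60 CPM and resident macrophage-like cells 2.45 and 9.61. B cell-like cells held 0 UMIs in each library, and WT neutrophil-like and eosinophil-like cells also held 0. Dendritic cells exceeded monocyte-like and macrophage-like cells by 3.06 log2 units in WT (2.47 to 3.70) and 3.02 in KO (2.59 to 3.47). A UMI was found in 32.6% of WT and 62.0% of KO cDC2-like cells (median depth 10117 and 14545 UMIs) and in 0.413% and 7.27% of T cell-like cells. With cells thinned to 2000 UMIs the cDC2-like shares were 9.91% (6.24 to 14.7) and 14.8% (11.8 to 18.3), and those of T cell-like cells 0% and 3.70%. Batf3, a cDC1 factor, was at 102 and 92.8 CPM in cDC1-like cells.

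In all, the named pair of class groups had the stated order for 9 of 9 factors in WT and for 8 of 9 in KO, the exception being Klf4. For Id2 the WT interval included 0. The factors and class comparisons were chosen with earlier results of these data known, so this count is a description and not a test.

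**Figure D2:**
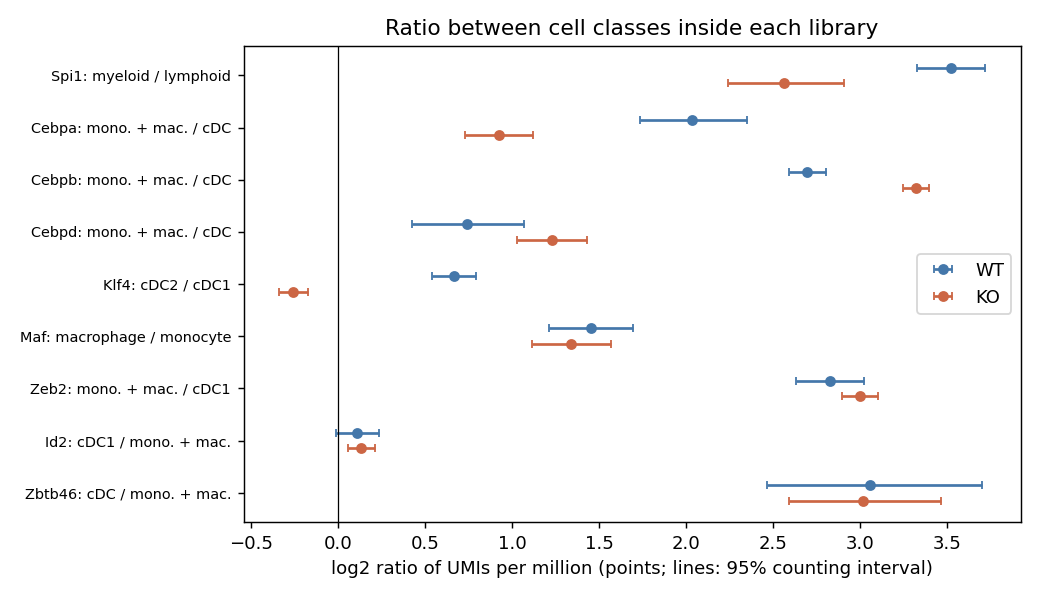
Log2 ratio of CPM (horizontal axis) between the groups of cell classes written beside each factor, within the WT (blue) and KO (orange) libraries. Points are ratios and lines 95% counting intervals. Klf4 alone lay on opposite sides of 0 in the 2 libraries, at 0.67 in WT and -0.26 in KO. The intervals of Spi1, Cebpa and Cebpb also did not overlap between libraries. For Spi1 the lymphoid group held 235 plasma cell-like cells in WT and 5 in KO.

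Over the 19 combinations of class and library with at least 50 cells, the factors were compared by the Pearson correlation of log2(CPM + 1). These points share libraries and depth, and the values are descriptions. Cebpb and Zeb2 were the most alike pair (r = 0.81), followed by Cebpa and Cebpd (0.79) and by Spi1 and Zeb2 (0.75), whereas Cebpb and Klf4 gave -0.47. Among 9485 genes with at least 200 UMIs, those of Il10ra and Kctd12 were among the nearest to Spi1 (each 0.94). Nearest to Cebpb were Atp6v1e1, Gm5150 and Acod1 (0.97, 0.95 and 0.93), and nearest to Cebpa were Trafd1, Map2k3os and Il13ra1 (each 0.89). For Cebpd they were Wdfy3, App and Mbnl2 (0.92, 0.91 and 0.91), and for Klf4 Luzp1, Cox7a2l and Hint2 (0.92, 0.91 and 0.90). Nearest to Zeb2 were Rbms1, Lst1 and Sirpa (0.95, 0.93 and 0.93), and nearest to Id2 were Furin, Fes and Prkch (0.95, 0.89 and 0.88). Maf and Zbtb46 had less similar neighbours. These were Pld3, Cyth3 and Tmx4 for Maf (0.80, 0.78 and 0.78) and Gpr4, Cst3 and Ust for Zbtb46 (0.85, 0.85 and 0.83).

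The KO library was then compared with WT within each of the 8 classes. A factor entered where it had at least 50 UMIs over both libraries, and counted as past the threshold at a 2-fold difference. In cDC1-like cells 0 of 9 factors were past 2-fold beside 3.70% of 7703 genes. The count was 0 of 8 in monocyte-like cells (7.93% of 7161 genes) and 0 of 5 in T cell-like cells (13.1% of 5069). It was 1 of 8 in resident macrophage-like cells (8.73% of 6883), 1 of 8 in cDC2-like cells (7.84% of 7925) and 1 of 6 in neutrophil-like cells (12.1% of 2395). It was 2 of 5 in eosinophil-like cells (12.4% of 2282) and 2 of 5 in B cell-like cells (7.60% of 3380). The median log2 ratio of all genes lay between -0.21 in cDC2-like and 0.07 in eosinophil-like cells, and that of the factors between -0.99 in B cell-like and 0.36 in eosinophil-like and neutrophil-like cells. Over all 8 classes, 7 values of the factors were past 2-fold, and 6 of them were lower in KO, beside 2339 of 3568 such values (65.6%) over all genes.

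**Figure D3:**
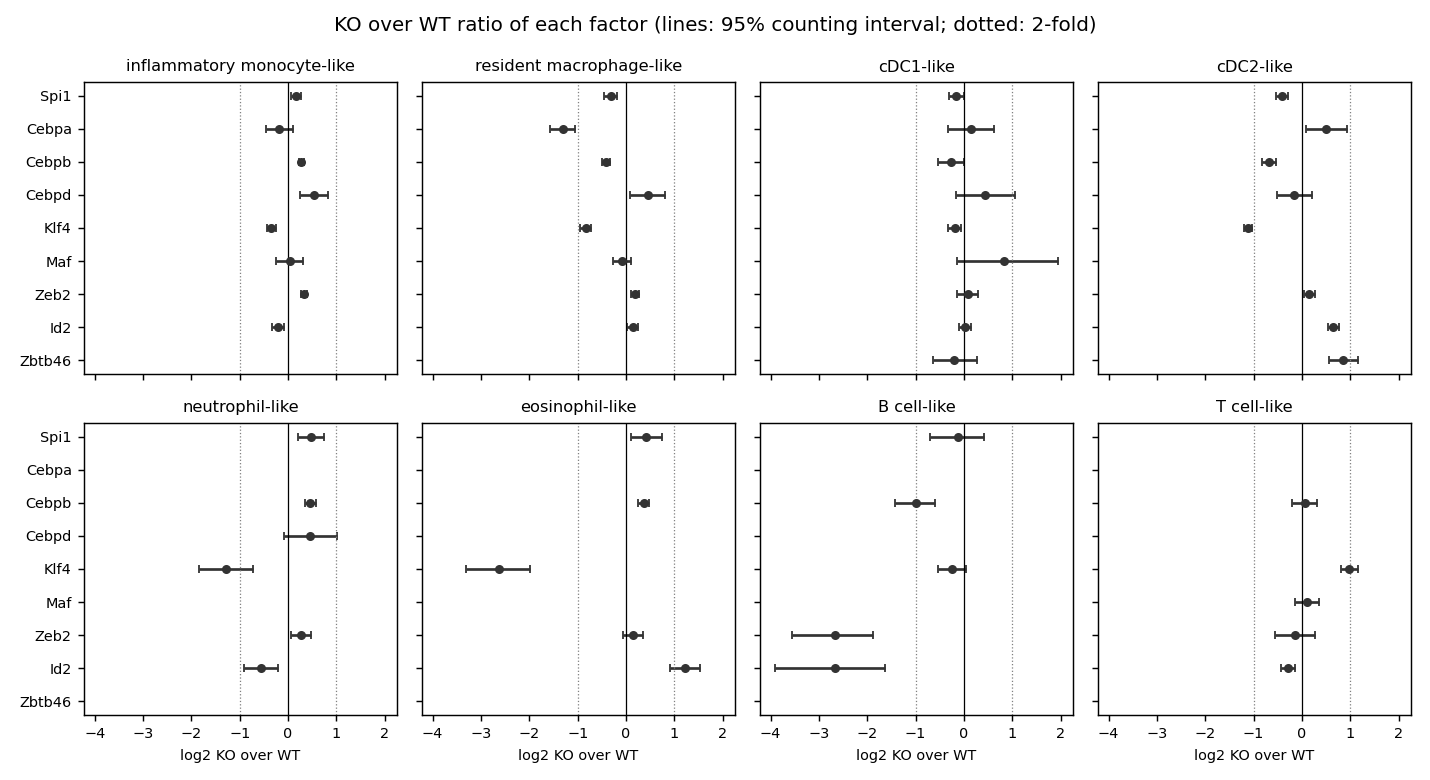
Log2 ratio of KO over WT (horizontal axis) for each factor with at least 50 UMIs over both libraries, in the 8 classes. Points are ratios, lines 95% counting intervals and dotted lines 2-fold. Klf4 lay below 0 in 7 of 8 classes and above 0 in T cell-like cells, and the cDC1-like panel holds no point past 2-fold.

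Klf4 was lower in KO with an interval below 0 in 6 of 8 classes. In cDC2-like cells the levels were 772 CPM (WT) and 355 (KO), which gave -1.12 (-1.21 to -1.03). Thinned to 2000 UMIs, 68.4% of WT and 45.5% of KO cDC2-like cells carried a Klf4 UMI. Within the cDC2-like cluster led by Plet1, which held most of the class in both libraries, the values were 783 and 403 CPM, a ratio of -0.96 (-1.05 to -0.87), and the KO cells of the cluster led by Ccl17 held 204 CPM. In resident macrophage-like cells the ratio was -0.84 (-0.96 to -0.72). It was -0.62 (-0.78 to -0.47) inside the Mmp13 cluster, at 663 and 431 CPM, and 0.02 (-0.42 to 0.48) inside the Retnla cluster, at 307 and 311. In monocyte-like cells the ratio was -0.35 (-0.44 to -0.26), and the intervals of the Ly6i and Chil3 clusters each included 0. In cDC1-like cells it was -0.20 (-0.32 to -0.07), and its direction changed under 1 alternative (0.02).

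In T cell-like cells Klf4 was higher in KO by 0.98 log2 units (0.80 to 1.15), and the ratio was 0.74 (0.47 to 1.01) in the Gzma and 0.62 (0.38 to 0.86) in the Icos cluster. It was 0.45 with 4000 variable genes, 0.47 with the stricter cell filter and 0.31 with the libraries clustered separately. Without the cells holding C1q UMIs it was 1.03 (0.85 to 1.21). The 8 resident macrophage markers summed to 69.8 CPM in WT and 211 in KO in this class, and 6 monocyte markers to 917 and 303. The monocyte sum was at 1529 CPM in WT epithelial-like cells, so it was not particular to monocytes.

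The granulocyte values of Klf4 rested on few molecules. In eosinophil-like cells 93 UMIs in WT and 26 in KO gave 345 and 55.9 CPM, a ratio of -2.63 (-3.31 to -1.99), and 5 cells carried 48.4% and 65.4% of them. Transcripts of macrophages and monocytes moved with it in these cells, Lyz2 being at 646 and 129 CPM and Cd14 at 226 and 55.9. The 8 resident macrophage markers summed to 1239 and 185 CPM, with none at 0. Without the 17.3% of WT and 2.44% of KO cells that held a UMI of C1qa, C1qb or C1qc, Klf4 was at 178 and 48.8 CPM, a ratio of -1.87 (-2.72 to -1.04). It was -0.69 with 4000 variable genes, -0.60 with the stricter cell filter and -0.27 at Leiden resolution 2. In neutrophil-like cells Klf4 was at 200.5 and 82.1 CPM, a ratio of -1.29 (-1.84 to -0.72) on 45 and 74 UMIs, of which 5 cells carried 57.8% and 62.2%. The ratio turned to 0.32 at Leiden resolution 2 and was -3.12 with the libraries clustered separately. The macrophage markers summed to 1123 and 432 CPM there, with 1 of 8 at 0, whereas Lyz2 was higher in KO, at 437 and 1738 CPM, as was Cd14 at 1898 and 2760. Without the cells holding C1q UMIs, the neutrophil ratio was -1.17 (-1.81 to -0.50).

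Cebpa was lower in KO resident macrophage-like cells, at 72.2 CPM against 179 in WT, on 203 and 366 UMIs. The log2 ratio was -1.31 (-1.57 to -1.06), the only value past 2-fold in this class. Inside the Mmp13 cluster the levels were 91.0 and 186 CPM, a ratio of -1.03 (-1.37 to -0.70). Inside the Retnla cluster they were 60.9 and 91.6 CPM, on 107 and 14 UMIs, and the interval included 0 (-1.40 to 0.33). At 2000 UMIs per cell, 15.5% of KO (11.3 to 20.6) and 24.9% of WT cells (19.7 to 30.7) carried a Cebpa UMI. The ratio was -0.80 without the 3% of cells with the highest doublet scores and -0.50 where the factors themselves could shape the clusters, settings that moved most WT monocyte-like cells into the macrophage class. In monocyte-like cells Cebpa was at 73.6 CPM in WT and 64.7 in KO, and its interval included 0 (-0.47 to 0.10). In the Chil3 cluster it was at 28.9 and 68.1 CPM on 6 and 161 UMIs (1.23, 0.08 to 2.70), and in the Ly6i cluster the interval included 0. Cebpb was also lower in KO resident macrophage-like cells, by less (-0.42, -0.51 to -0.34; -0.66 in the Mmp13 and -0.43 in the Retnla cluster), whereas Cebpd was higher (0.44, 0.09 to 0.81). Inside the Mmp13 and Retnla clusters the Cebpd intervals included 0 (-0.31 to 0.69 and -0.92 to 0.93).

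Maf in the same class was at 197 CPM in WT and 186 in KO, and its interval included 0 (-0.27 to 0.11). The ratio was above 0 under 8 of 12 alternatives, reaching 1.19. The 2 clusters went opposite ways. In the Mmp13 cluster Maf was at 184 CPM in WT and 321 in KO, a ratio of 0.80 (0.58 to 1.02). In the Retnla cluster it was at 360 and 105 CPM, a ratio of -1.77 (-2.21 to -1.31), where WT was 20 cells with 55 UMIs. Monocyte-like clusters differed in the same manner, with ratios of 0.81 (0.37 to 1.23) in the Ly6i and -1.16 (-1.92 to -0.31) in the Chil3 cluster. The WT part of the Chil3 cluster was 31 cells with 17 Maf UMIs.

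**Figure D4:**
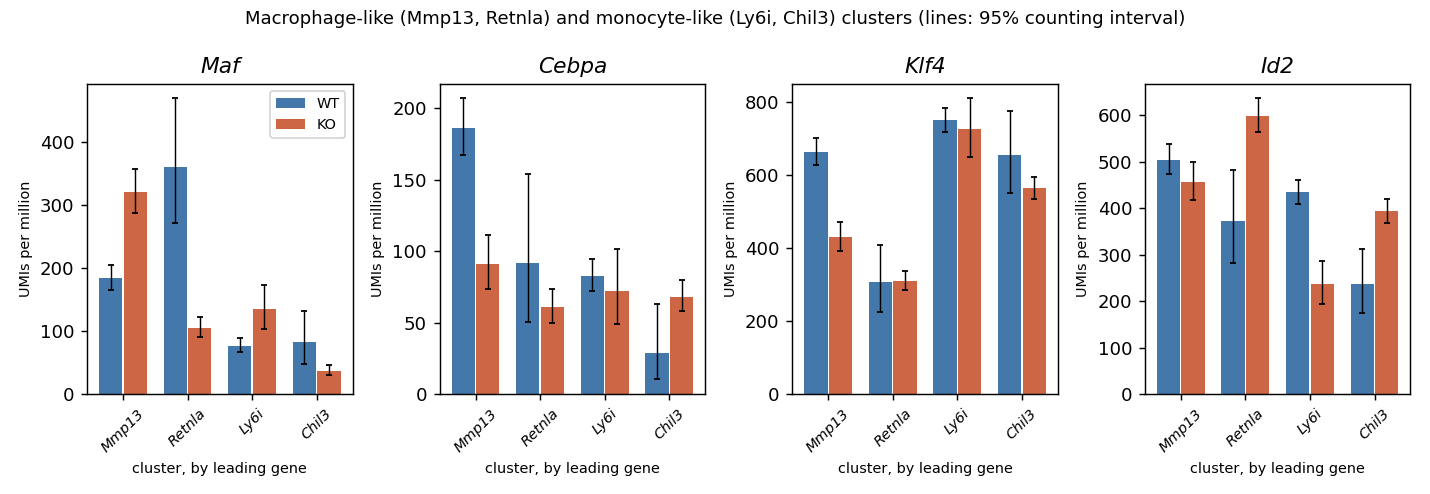
Maf, Cebpa, Klf4 and Id2 in CPM (vertical axis, a separate scale for each gene) in the resident macrophage-like clusters led by Mmp13 and Retnla and the inflammatory monocyte-like clusters led by Ly6i and Chil3. Bars are WT (blue) and KO (orange) and lines 95% counting intervals. Maf was higher in KO in the Mmp13 and Ly6i clusters and lower in the Retnla and Chil3 clusters, and Cebpa was lower in KO in the Mmp13 cluster.

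Zbtb46 and Id2 were both higher in KO cDC2-like cells. Zbtb46 was at 47.7 CPM in WT and 86.0 in KO (0.85, 0.56 to 1.16), and inside the Plet1 cluster at 48.7 and 78.1 (0.68, 0.38 to 1.00). The KO cells of the Ccl17 cluster held 111 CPM. Id2 was at 345 and 541 CPM (0.65, 0.54 to 0.76), at 341 and 442 inside the Plet1 cluster (0.37, 0.26 to 0.49) and at 853 in the KO cells of the Ccl17 cluster. Spi1 and Cebpb were lower in KO cDC2-like cells, with ratios of -0.41 (-0.53 to -0.29) and -0.68 (-0.82 to -0.54). Inside the Plet1 cluster these were -0.35 (-0.47 to -0.22) and -0.81 (-0.96 to -0.66). The direction of Cebpb changed under 1 alternative (0.13), and where it was kept the ratio lay between -0.88 and -0.04. In cDC1-like cells Zbtb46, Id2, Zeb2 and Spi1 had intervals that included 0.

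Id2 was the 1 factor past 2-fold upwards, but relative to the median ratio of all genes in the class Zbtb46 in cDC2-like cells was also past it (1.06), and Klf4 there was not (-0.91). Relative to that median Klf4 in T cell-like cells was at 1.17. In eosinophil-like cells Id2 was at 419 CPM in WT and 974 in KO, on 113 and 453 UMIs, a ratio of 1.22 (0.92 to 1.53). At 500 UMIs per cell, 15.6% of WT and 29.3% of KO cells carried an Id2 UMI. Without the cells holding C1q UMIs the ratio was 1.15 (0.81 to 1.51). With the stricter cell filter, which left 69 WT cells in the class, it was 0.72. Cebpb, Spi1 and Zeb2 differed less in this class, with ratios of 0.36 (0.25 to 0.48), 0.41 (0.10 to 0.74) and 0.14 (-0.07 to 0.35).

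In B cell-like cells Zeb2 was at 226 CPM in WT and 35.5 in KO, on 180 and 14 UMIs, and Id2 at 129 and 20.3, on 103 and 8. Both log2 ratios were -2.67, with intervals of -3.57 to -1.88 and -3.92 to -1.64. Transcripts shared by myeloid classes were lower in the same comparison, Lyz2 being at 276 and 40.6 CPM and Cd14 at 90.2 and 7.62. Csf1r had 29 UMIs in WT and 0 in KO, Csf3r 44 and 1, and Itgam 32 and 1. The 8 resident macrophage markers summed to 1123 CPM in WT, with none at 0, and to 820 in KO, with 4 at 0. Without the 7.96% of WT and 7.06% of KO cells that held a C1q UMI, Zeb2 was at 198 and 35.7 CPM (-2.47, -3.41 to -1.65) and the ratio of Id2 was -2.45 (-3.70 to -1.40). This cut kept any cells with other myeloid transcripts but no C1q UMI. The Zeb2 ratio was -1.74 without the cells of highest doublet score and -1.52 with cells classed by their highest marker score.

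Neutrophil-like cells had higher Spi1, Cebpb and Zeb2 in KO, by 0.47 (0.21 to 0.74), 0.46 (0.35 to 0.58) and 0.27 log2 units (0.07 to 0.48), and lower Id2, with a ratio of -0.56 (-0.91 to -0.20). For Id2, 5 cells carried 58.7% of the 92 UMIs in WT and 26.8% of the 250 in KO. In monocyte-like cells Cebpb, Zeb2 and Cebpd were higher in KO, by 0.28 (0.22 to 0.33), 0.33 (0.27 to 0.39) and 0.54 (0.25 to 0.83). The direction of Cebpd changed under 3 alternatives (-0.27 to -0.17). Inside the Ly6i and Chil3 clusters the intervals included 0 for Zeb2 (-0.09 to 0.17 and -0.06 to 0.28) and for Cebpd (-0.29 to 0.93 and -1.12 to 0.14). Spi1 was lower in KO in the Ly6i cluster (-0.27, -0.51 to -0.04), and in the Chil3 cluster its interval included 0 (-0.11 to 0.47). Cebpb was lower in KO in the Ly6i cluster (-0.26, -0.38 to -0.14) and higher in the Chil3 cluster (0.21, 0.06 to 0.36). Id2 was lower in the Ly6i cluster (-0.87, -1.17 to -0.58) and higher in the Chil3 cluster (0.74, 0.32 to 1.18).

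Of 27 related genes (partners, paralogues and targets of the factors), 1 to 4 per class were past 2-fold. In resident macrophage-like cells they were 4 of 24 with enough UMIs (8.73% of all genes). Irf8 was at 276 and 130 CPM, Csf3r, the receptor of granulocyte colony-stimulating factor, at 86.6 and 31.7, and Fcgr1, the high-affinity IgG receptor, at 107 and 45.9. Zeb1 was higher in KO, at 7.34 and 24.2. Csf1r, the receptor on which macrophages depend, was at 699 and 609 CPM. In monocyte-like cells 3 of 23 were past 2-fold (7.93% of all genes), Lyz2 at 4664 and 14787 CPM, Irf4 at 34.3 and 15.4, and Tcf4 at 161 and 79.5. In cDC1-like cells 1 of 21 was higher in KO (3.70% of all genes past 2-fold), the Id2 paralogue Id1 at 23.3 and 47.8 CPM. In cDC2-like cells 1 of 22 was lower in KO (7.84% of all genes past 2-fold), the stress-induced C/EBP relative Ddit3 at 76.4 and 37.2. In T cell-like cells they were 4 of 18 (13.1% of all genes), with Lyz2, Cd14 and Id3 higher and Irf8 lower in KO. In neutrophil-like cells there was 1 of 13 (12.1% of all genes), Lyz2 at 437 and 1738 CPM. In eosinophil-like and B cell-like cells they were 2 of 11 and 2 of 15 (12.4% and 7.60% of all genes), in each case Lyz2 and Cd14, both lower in KO.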

How the data were processed

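The deposited values were raw counts of UMIs per gene and cell barcode (10x Genomics 3' chemistry V3), made by the authors with Cell Ranger 3.0.2 per the file headers. The labels' processing notes name mm10 and Seurat 4. Positions were taken from GENCODE M21 (GRCm38) by gene identifier. The files held 3185 WT and 3020 KO barcodes with 22191774 and 23384895 UMIs. The study states larger cell numbers than these for both genotypes, several-fold larger for WT. Cells with 200 to 6000 genes and at most 15% mitochondrial UMIs were kept, as in the study, which removed 18.5% and 16.8%. DESC, the clustering method of the study, was replaced here, so class names are rebuilt.

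Counts were scaled to 10000 per cell and log-transformed. Clustering used 2000 variable genes without the 9 factors and 28 related genes, 30 principal components, 15 neighbours, shared-neighbour weights and Leiden resolution 1 (scanpy 1.11.5, leidenalg 0.10.2, scikit-learn 1.9.0, Python 3.11.15). Each cluster was named for the class that had the highest fraction of raised markers (2-fold over other cells with a prior of 10 CPM, detection in 10% of cells, at least 3 markers). Scrublet called 0 WT and 9 KO cells as doublets, which is too few to have worked, so doublets were kept and removal of the top 3% of scores was an alternative. UMIs were summed per class and library. Levels carry exact Poisson, shares Clopper-Pearson and ratios conditional binomial 95% intervals (scipy 1.17.1). The 2-fold threshold used a prior of 1 CPM. Interval coverage was tested on simulated counts. Some items are not reported here, and 27 related genes were described. The named genes are all 9 factors, related genes past 2-fold or beside a factor in a class comparison, and the 3 genes with the most similar profile to each factor. The factors, lists and class comparisons were chosen with earlier results of these data known. Alternatives changed the clustering, class assignment, cell filter, doublets, minimum UMIs, prior and scaling. Leaving out single clusters, or cells with a C1q UMI, was chosen after seeing the data.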

Additional observations from a re-analysis of the deposited data

Results flagged for a closer look

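The values below are differences between log2 ratios that pointed in opposite directions with counting intervals on opposite sides of 0. With 1 library per genotype these differences were not tested. The KO to WT ratio of Id2 was 3.88 log2 units higher in eosinophil-like than in B cell-like cells (1.22 against -2.67). The cDC2 to cDC1 ratio of Klf4 was 0.923 higher in WT than in KO. For Maf, the KO to WT ratio was 2.58 higher in the Mmp13 than in the Retnla cluster of resident macrophage-like cells. Within inflammatory monocyte-like cells the Ly6i and Chil3 clusters differed by 1.97 for Maf, by 0.466 for Cebpb and by 1.61 for Id2. The WT side was small in the Retnla cluster (20 cells, 55 Maf UMIs) and in the Chil3 cluster (31 cells, 17 Maf UMIs).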

How the results depend on the processing

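No paired analysis was possible because each genotype was 1 library and the replicate number came only from accession order. Of 195 class comparisons within a library under alternatives, 192 kept their direction, and the 3 that changed were Id2 in WT (-0.13 to -0.08). Of 655 KO to WT ratios, 591 kept their direction. Both counts include settings that could not change a value, since leaving out a single cluster did not alter classes outside it. The class comparisons of Maf, Zeb2 and Id2, for example, were the same without the Ccl17 cluster. The kept counts therefore overstate how far the directions were tried. The Klf4 ratio of neutrophil-like cells reversed to 0.32 at Leiden resolution 2. The number of factors past 2-fold moved as follows, and the cause was not tested. Resident macrophage-like cells (1) gave 0 at resolution 0.5, with cells classed by marker score and without the top doublet scores, and 2 with no minimum of UMIs. With factors allowed as variable genes it stayed 1, but the factor was Maf (1.19) and not Cebpa (-0.50). In cDC2-like cells (1) it was 0 at resolutions 0.5 and 2, with 4000 variable genes and without the Ccl17 cluster, and relative to the class median the 1 factor was Zbtb46 (1.06) and not Klf4 (-0.91). In cDC1-like cells (0) it was 1, Cebpd, at resolution 2, with libraries clustered alone, by marker score and with the stricter cell filter (500 genes, 10% mitochondrial). In eosinophil-like cells (2) it was 0 at resolution 2 and with the stricter filter, 1 with 4000 variable genes, with factors allowed as variable genes, by marker score and at a minimum of 200 UMIs, and 5 with no minimum. In neutrophil-like cells (1) it was 0 at resolution 2, by marker score and at 200 UMIs and 3 with no minimum. In T cell-like cells (0) it was 1 with libraries clustered alone (Maf), relative to the class median and without C1q cells (Klf4), 2 without the top doublet scores and 4 with no minimum. In B cell-like cells (2) it was 4 with no minimum and 0 at 200 UMIs. At resolution 0.5 the WT resident macrophage-like class grew from 326 to 769 cells, and the cDC1-like class fell under 50 WT cells and gave no value. The eosinophil-like class gave none where libraries were clustered alone. Across alternatives Cebpa in resident macrophage-like cells ranged from -1.31 to -0.50, and Klf4 in cDC2-like cells from -1.23 to -0.88. The limit that a count of 0 allowed (3 counts) was 0.158 CPM over the WT and 0.134 over the KO library.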
